A study of Homo sapiens with 18 samples.

Results

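The pancreatic epithelial transcription factors described here are 8 genes, GATA6, HNF4A, FOXA1, FOXA2, KLF5, ELF3, SOX9 and TP63. They were chosen by symbol, as factors linked to the classical and basal-like subtypes of pancreatic cancer, and each has 1 of the 26668 gene rows of the expression table. The choice was made with earlier results of these data known. The study depleted OFD1, a protein of the distal ends of centrioles and of centriolar satellites, in pancreatic cancer cell lines and asked what happens to transcription. RNA-seq was available for 18 libraries from 3 human pancreatic carcinoma lines, PANC-1, MIA PaCa-2 and PaTu 8988T, with 3 control and 3 shOFD1 libraries in each line. The shOFD1 cells carried a short hairpin RNA under a doxycycline-inducible promoter and were treated with doxycycline for 72 h. The control libraries are called shControl in their titles, with wild-type genotype and no treatment in the other labels, and the study's methods describe vehicle-treated inducible cells. Which of these they were was not settled, and because doxycycline went to the knockdown cultures alone, its own effect and that of the hairpin cannot be told apart. The series text puts controls at day 0 and knockdowns at day 3, so time in culture may differ as well. Replicates 2 and 3 of PaTu 8988T carry differing line names in a source label, and the titles were followed. No label says that the replicates were separate cultures, so the p-values below measure only the spread between these libraries.

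Pancreatic ductal adenocarcinoma is commonly divided into a classical subtype, which keeps an endodermal and glandular expression programme, and a basal-like subtype, which loses it and gains squamous features. GATA6, a zinc-finger factor, and HNF4A, a nuclear receptor, are the best known classical factors, and the forkhead factors FOXA1 and FOXA2 open chromatin for them. KLF5 and ELF3 act widely in glandular epithelium, SOX9 marks ductal and progenitor cells, and TP63 is the master regulator of squamous and basal epithelium. In GENCODE 29 (GRCh38) the genes lie at chr18:22169443-22202528 (GATA6), chr20:44355700-44434596 (HNF4A), chr14:37589984-37596059 (FOXA1), chr20:22581005-22585455 (FOXA2), chr13:73054976-73077542 (KLF5), chr1:202007945-202017188 (ELF3), chr17:72121020-72126420 (SOX9) and chr3:189631416-189897279 (TP63). FOXA1 and FOXA2 are on the minus strand and the other members on the plus strand.

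Values are FPKM, the fragments of a gene per kilobase of its length, scaled by the reads counted in the library. Whole reads could be worked back from them, and the libraries held between 32486479 and 39797537 counted reads. A gene was tested in a line where its mean over the 6 libraries was at least 1 FPKM, with limma on log2(FPKM + 0.1) and Benjamini-Hochberg adjustment over all genes tested, and it is called changed at an adjusted p below 0.05. Fold changes on this scale understate the change of low genes. Members under 1 FPKM but with at least 10 reads in at least 3 libraries of a line were tested with limma voom on the recovered reads, a fit added after the data were seen. OFD1 was lower in the knockdown of each line, at 5.43 ± 0.279 (SD, n = 3) in control and 2.55 ± 0.263 FPKM in shOFD1 PANC-1 cells (limma adjusted p = 2.70e-06), and at 2.06 ± 0.112 and 0.911 ± 0.0679 FPKM in PaTu 8988T (limma adjusted p = 5.47e-05). In MIA PaCa-2 it was 2.85 ± 0.509 and 1.82 ± 0.129 FPKM (limma adjusted p = 0.0232). This call was lost in 6 of 14 alternative settings, with log2 fold changes of -0.61 in all libraries and -0.76 without control replicate 2. OFD1 was counted over 4150 bases in PANC-1 and 9312 bases in the other lines, so its FPKM is not comparable between them. Control replicate 2 of MIA PaCa-2 stood apart. The chi-square statistic over its reads, divided by the degrees of freedom, was 130 and 132 against the other control libraries, which gave 3.05 between them. The fitted changes of OFD1, TP63, SOX9, KLF5, FOXA1 and ELF3 in that line are therefore also given without it. Those of GATA6 and of the marker and factor lists are given with it only, and the main fit of differences between lines includes it. The epithelial keratin KRT8 was high in each line, but the ductal keratin KRT19 had 1 read in a single library of PaTu 8988T and 0 in the others, and the cell adhesion genes CDH1 and EPCAM, defining markers of epithelium, had at most 6 reads in any MIA PaCa-2 library. Bulk libraries cannot tell fewer cells of a type from less RNA per cell.

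The 3 lines held different sets of these factors before OFD1 was depleted. In control PANC-1 cells the level per gene length was led by SOX9 (48.0 ± 1.59 FPKM), then FOXA2 (19.4 ± 0.484 FPKM), ELF3 (12.6 ± 0.0767 FPKM) and FOXA1 (1.30 ± 0.0510 FPKM), with no overlap between neighbours in this order. GATA6 (0.397 ± 0.143 FPKM), KLF5 (0.350 ± 0.0918 FPKM) and TP63 (0.320 ± 0.0672 FPKM) followed within each other's spread. Control MIA PaCa-2 cells had SOX9 at 37.4 ± 2.16 FPKM and TP63 at 13.3 ± 2.56 FPKM, ahead of FOXA1 (5.51 ± 0.265 FPKM) and ELF3 (5.20 ± 0.757 FPKM), whose libraries overlapped, and of KLF5 (2.62 ± 0.414 FPKM) and GATA6 (0.147 ± 0.0809 FPKM). In control PaTu 8988T cells the order was KLF5 (5.46 ± 0.585 FPKM), SOX9 (2.29 ± 0.132 FPKM), FOXA1 (0.822 ± 0.170 FPKM), GATA6 (0.674 ± 0.0222 FPKM) and ELF3 (0.261 ± 0.0854 FPKM), and no neighbours among these overlapped.

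**Figure D1:**
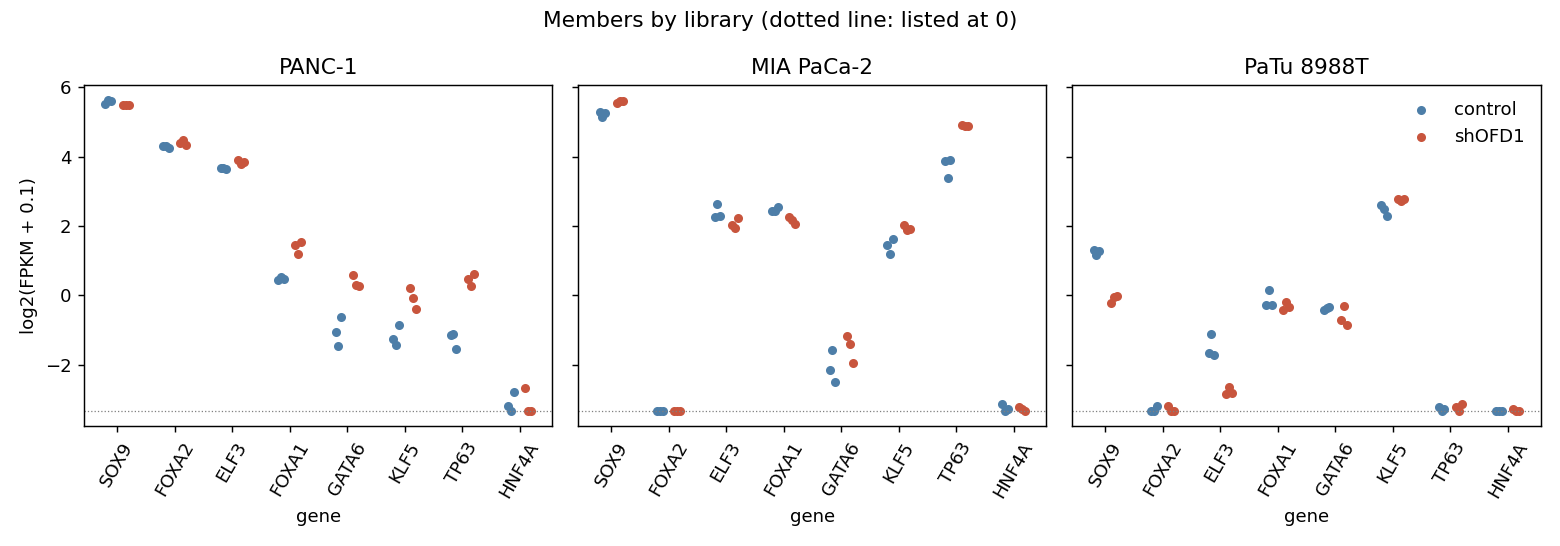
Level of each member in each library, as log2(FPKM + 0.1) on the y axis, in 3 panels for the 3 lines, with 3 control points (blue) and 3 shOFD1 points (red) per gene. SOX9 leads in PANC-1 and MIA PaCa-2 and KLF5 in PaTu 8988T, FOXA2 is high in PANC-1 and listed at 0 throughout MIA PaCa-2, which was not read as absence, and HNF4A lies at or near the dotted line of a value of 0 in each panel.

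HNF4A was close to the detection limit in every line. It had 2, 0 and 8 reads in the control and 10, 0 and 0 reads in the shOFD1 libraries of PANC-1, 4, 0 and 1 against 2, 1 and 0 reads in MIA PaCa-2, and a single read in 1 of the 6 libraries of PaTu 8988T. A library at 0 reads allows up to 3 reads, which for HNF4A in PANC-1 control replicate 2 is 0.0155 FPKM, and no change was detectable at this depth. FOXA2 was listed at 0 in all 6 libraries of MIA PaCa-2 and had 1 read in control replicate 3 and 1 read in shOFD1 replicate 1 of PaTu 8988T. It was 1 of 47 genes listed at 0 throughout MIA PaCa-2 while averaging at least 10 FPKM in PANC-1, and those 0 values were not read as absence. TP63 had 2, 0 and 1 reads in control and 2, 0 and 4 reads in shOFD1 PaTu 8988T cells. These intervals and limits cover counting error only.

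Control levels could be tested between PaTu 8988T and MIA PaCa-2, whose files used the same gene length for 96.9% of the genes above 0 in both. All 5 members that could be tested differed, where 66.8% of 10729 genes did, but FOXA1, ELF3 and TP63 passed the filter through MIA PaCa-2 alone and had to differ, so this count supports nothing. KLF5 was higher in PaTu 8988T by 1.04 on the log2 scale (SE 0.151, limma adjusted p = 0.000864). FOXA1 was 6.14-fold higher in MIA PaCa-2 (limma adjusted p = 9.34e-06), ELF3 14.9-fold (limma adjusted p = 4.93e-06) and SOX9 15.7-fold (limma adjusted p = 1.57e-07). TP63 differed too (limma adjusted p = 1.55e-07), with 2909 to 4114 reads in the control libraries of MIA PaCa-2 against at most 2 in those of PaTu 8988T, for which no fold is given. PANC-1 shared a gene length with the other lines for only 53.7% of genes, and its control levels were set beside theirs without a test. The lengths behind GATA6, FOXA1, KLF5, SOX9 and TP63 were equal in all 3 lines, whereas ELF3 was counted over 3204 bases in PANC-1 and 3318 bases in the other lines.

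In PANC-1 cells, FOXA1, GATA6, KLF5 and TP63 rose upon OFD1 knockdown, and FOXA2 and ELF3 rose by small amounts while SOX9 fell slightly. All 4 members above the FPKM filter were called changed, where 72.3% of 10902 genes were. None of them passed the study's threshold of 2-fold as well, which 6.60% of genes did. On the recovered reads all 7 members with enough reads were called, beside 67.1% of 13199 genes, and 3 of them also exceeded 2-fold, beside 10.3%. With so many genes called in this line, the count of members called does not set them apart from other genes.

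FOXA1 was at 1.26, 1.36 and 1.29 FPKM in the control libraries and at 2.64, 2.21 and 2.78 FPKM in the shOFD1 libraries of PANC-1. Every knockdown library lay above every control, with a log2 fold change of 0.91 (SE 0.115, limma adjusted p = 5.15e-05). This call held in all 14 alternative settings, with log2 fold changes from 0.62 to 1.01.

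GATA6 was at 0.383, 0.261 and 0.546 FPKM in control PANC-1 libraries, or 50, 35 and 68 reads, and at 1.42, 1.13 and 1.12 FPKM, or 167, 134 and 139 reads, in shOFD1 libraries. The groups did not overlap, and the ratio of the means was 3.08 (voom log2 fold change 1.68, SE 0.296, adjusted p = 2.91e-06). TP63 had 90, 95 and 59 reads in control and 293, 254 and 351 reads in shOFD1 libraries of PANC-1. Its FPKM rose from 0.320 ± 0.0672 to 1.28 ± 0.174 (n = 3), again without overlap, a ratio of 3.98 (voom log2 fold change 2.0, SE 0.227, adjusted p = 1.32e-10). KLF5, a zinc-finger factor of proliferating gut and glandular epithelium, was at 0.322, 0.276 and 0.453 FPKM in control and at 1.05, 0.858 and 0.668 FPKM in shOFD1 libraries. All 3 knockdown values were above the controls, with a ratio of 2.46 (voom log2 fold change 1.30, SE 0.325, adjusted p = 0.000526). The mean of these 3 members stayed under the 1 FPKM filter, so their calls rest on 35 to 351 reads a library.

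FOXA2 was at 19.7, 19.7 and 18.9 FPKM in control and 21.0, 22.4 and 20.2 FPKM in shOFD1 PANC-1 libraries. The groups did not overlap, but the log2 fold change was only 0.12 (SE 0.0459, limma adjusted p = 0.0333) and it was not called in 6 of 15 alternative settings, among them median-ratio scaling (0.07, adjusted p = 0.190, limma). ELF3, an ETS factor of differentiated epithelium, was at 12.7, 12.6 and 12.5 FPKM in control and 14.9, 13.6 and 14.2 FPKM in shOFD1 libraries. Its rise of 0.18 on the log2 scale (SE 0.0467, limma adjusted p = 0.00659) held in all 15 alternative settings. SOX9 was at 46.2, 49.1 and 48.6 FPKM in control and at 45.3, 45.0 and 45.2 FPKM in shOFD1 libraries. Its log2 fold change of -0.09 (SE 0.0321, limma adjusted p = 0.0339) was not called in 6 of 15 settings. The number of members called in PANC-1 dropped from 4 to 2 without control replicate 3, without shOFD1 replicate 1 or without shOFD1 replicate 2.

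The sequence just before the annotated transcription start is shown for the members that rose most in PANC-1. These members did not all move together in the other lines, and a shared cause was not tested. RefSeq promoter windows (GRCh38.p14, 250 bases before to 50 bases after a start) were found for 6 of the 8 members. Each line gives the 150 bases before the start on the gene's strand, 5′ to 3′, and capitals mark a match to 1 of the 6 motifs named after them. The stretches are chr18:22169439-22169588 (GATA6, plus strand), chr14:37595250-37595399 (FOXA1, minus strand), chr13:73058855-73059004 (KLF5, plus strand, the downstream of its 2 listed starts) and chr3:189631239-189631388 (TP63, plus strand, the start of the long isoforms).
GATA6: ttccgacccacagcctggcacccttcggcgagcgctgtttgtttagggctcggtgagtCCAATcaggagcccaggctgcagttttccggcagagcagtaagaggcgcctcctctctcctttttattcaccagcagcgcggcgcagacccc
FOXA1: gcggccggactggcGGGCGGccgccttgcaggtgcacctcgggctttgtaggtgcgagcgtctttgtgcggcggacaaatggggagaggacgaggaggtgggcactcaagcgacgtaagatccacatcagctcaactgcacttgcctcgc
KLF5: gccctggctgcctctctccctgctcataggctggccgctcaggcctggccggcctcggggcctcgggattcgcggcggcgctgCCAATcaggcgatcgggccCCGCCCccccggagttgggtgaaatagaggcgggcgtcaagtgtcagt
TP63: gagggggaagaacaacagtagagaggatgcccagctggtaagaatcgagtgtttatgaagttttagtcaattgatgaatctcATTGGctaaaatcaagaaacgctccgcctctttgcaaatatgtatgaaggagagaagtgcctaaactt

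Letters were searched on both strands of the whole 300-base windows. The GC box GGGCGG had 2 matches at FOXA1 and 2 at KLF5, and it occurred in 45% of 35116 promoter windows. The CCAAT box, searched as CCAAT, had 1 match at GATA6, 2 at KLF5 and 2 at TP63, and it occurred in 34.6% of windows. The TATA box, as TATAAA, had 1 match at TP63 and occurred in 11.5% of windows. The forkhead letters TGTTTAC (3.42% of windows), the GATA letters AGATAA (10.3%) and TTTGAA, the cell cycle genes homology region that MuvB complexes recognise (15.2%), had no match in any of these 4 windows. The windows differed in base composition, with 66.7% G and C at GATA6, 69.3% at FOXA1, 71.3% at KLF5 and 43.7% at TP63, beside a median of 58.7% over all windows. No single motif was shared by these 4 windows. The window of the upstream KLF5 start, which is not shown, had 40.7% G and C, 1 TATA box and no GC or CCAAT box. Which starts the cells used was not tested.

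**Figure D2:**
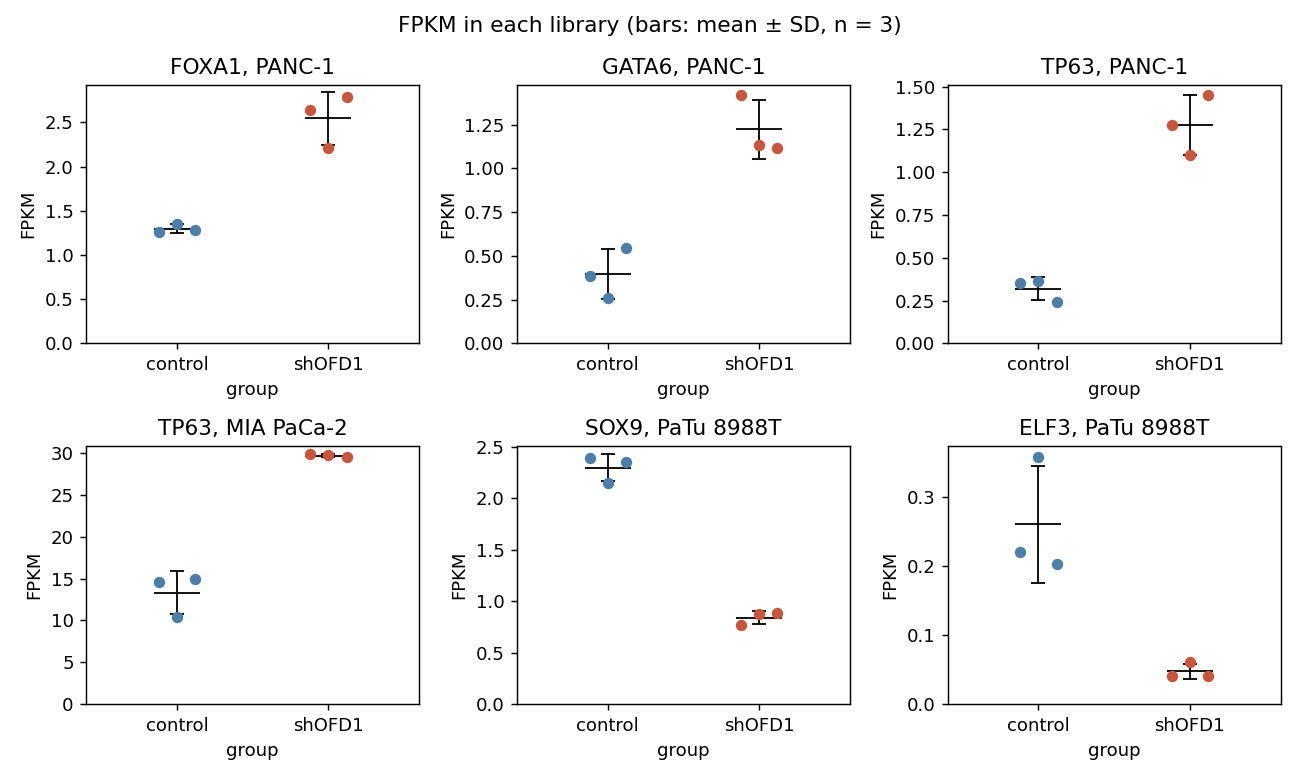
FPKM on the y axis, from 0, of 6 member and line pairs in control (blue) and shOFD1 (red) libraries, with each library as a point and bars at the mean ± SD (n = 3). FOXA1, GATA6 and TP63 in PANC-1 and TP63 in MIA PaCa-2 are higher in each knockdown library than in any control, and SOX9 and ELF3 in PaTu 8988T are lower.

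In MIA PaCa-2 cells, TP63 more than doubled in the knockdown, KLF5 and SOX9 rose by smaller amounts, and FOXA1 fell. Of the 5 members tested, 4 were called changed, where 40.4% of 10758 genes were, and 1 passed 2-fold as well, where 7.75% did. On the recovered reads the same 4 of 6 tested members were called (37.1% of 14089 genes), and 1 exceeded 2-fold (11.5%).

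TP63 was at 14.6, 10.4 and 14.9 FPKM in the control libraries of MIA PaCa-2 and at 29.8, 29.7 and 29.5 FPKM in the shOFD1 libraries, on 2909 to 8180 reads. Each knockdown library was above each control, with a log2 fold change of 1.17 (SE 0.148, limma adjusted p = 0.00159). This call held in all 15 settings, and without control replicate 2, the lowest library, the log2 fold change was 1.0 (limma adjusted p = 4.00e-08).

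SOX9 was at 39.0, 35.0 and 38.3 FPKM in control and 46.6, 48.3 and 48.2 FPKM in shOFD1 libraries of MIA PaCa-2. The groups did not overlap (log2 fold change 0.35, SE 0.0738, limma adjusted p = 0.0104), and the value was 0.30 without control replicate 2. The call was lost in 2 of 15 settings, without shOFD1 replicate 2 and without shOFD1 replicate 3. KLF5 was at 2.66, 2.18 and 3.01 FPKM in control and 3.97, 3.62 and 3.69 FPKM in shOFD1 libraries. It was higher in all 3 knockdown libraries (log2 fold change 0.52, SE 0.140, limma adjusted p = 0.0261), but it was not called in 6 of 14 settings. FOXA1 was at 5.35, 5.35 and 5.81 FPKM in control and 4.69, 4.43 and 4.07 FPKM in shOFD1 libraries. It was lower in all 3 knockdown libraries (log2 fold change -0.32, SE 0.102, limma adjusted p = 0.0447), with the call missing in 8 of 14 settings. Without control replicate 2 the same 4 members were called, with log2 fold changes of 0.40 for KLF5 and -0.34 for FOXA1. In that setting 8098 of 10758 genes were called, against 4350 with all libraries and 2423 to 2468 with any 1 shOFD1 library left out.

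ELF3 in MIA PaCa-2 was at 4.74, 6.07 and 4.78 FPKM in control and 4.03, 3.72 and 4.63 FPKM in shOFD1 libraries. The groups did not overlap, yet the log2 fold change of -0.32 did not pass (SE 0.142, limma adjusted p = 0.114), and it was -0.21 without control replicate 2 (limma adjusted p = 0.0656). GATA6 had 18, 34 and 11 reads in control and 48, 38 and 22 reads in shOFD1 libraries, which overlapped, and it did not pass on reads (voom log2 fold change 0.87, SE 0.477, adjusted p = 0.189). The number of members called in MIA PaCa-2 dropped to 2 without control replicate 1 or without shOFD1 replicate 1, and to 1 without shOFD1 replicate 2 or without shOFD1 replicate 3. PTPRC, a blood cell gene, moved with these results in MIA PaCa-2, from 3.51 ± 1.09 to 6.0 ± 0.186 FPKM (limma adjusted p = 0.0312). It was the 1 of 5 blood and endothelial markers above 1 FPKM, the list summed to 2.36 to 4.46 FPKM in control and 5.93 to 6.32 FPKM in shOFD1 libraries, and CD3E and HBB were listed at 0. All 7 acinar and endocrine markers were listed at 0 there. The part of these markers in the results was not tested.

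In PaTu 8988T cells, SOX9 and ELF3 fell and KLF5 rose. Both members tested were called changed, where 39.4% of 10698 genes were, and SOX9 passed 2-fold as well, which 1.0% of genes did. On the recovered reads 3 of 5 tested members were called (35.8% of 14088 genes), and 2 exceeded 2-fold (3.16%).

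SOX9 was at 2.39, 2.14 and 2.35 FPKM in control and 0.765, 0.872 and 0.882 FPKM in shOFD1 libraries of PaTu 8988T. The groups lay far apart, with a ratio of means of 0.366 and a log2 fold change of -1.35 (SE 0.103, limma adjusted p = 1.67e-05) that was called in all 14 settings. SOX9 passed the FPKM filter through its control libraries, but each shOFD1 library still held 111 to 126 reads. ELF3 had 27, 42 and 25 reads in control and 5, 7 and 5 reads in shOFD1 libraries. The groups did not overlap, at 0.261 ± 0.0854 and 0.0477 ± 0.0113 FPKM (voom log2 fold change -2.33, SE 0.428, adjusted p = 0.000595). ELF3 passed the read filter only through the control libraries, so it had to differ to be tested and lends the count of members no support.

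KLF5 was at 5.98, 5.56 and 4.83 FPKM in control and 6.80, 6.48 and 6.79 FPKM in shOFD1 PaTu 8988T libraries. All 3 knockdown libraries were above the controls (log2 fold change 0.29, SE 0.0786, limma adjusted p = 0.0157), and the call was lost in 1 of 15 settings. GATA6 had 87, 87 and 93 reads in control and 68, 90 and 60 reads in shOFD1 libraries (voom log2 fold change -0.30, SE 0.203, adjusted p = 0.272). FOXA1 was at 0.719, 1.02 and 0.730 FPKM in control and 0.644, 0.772 and 0.699 FPKM in shOFD1 libraries (voom log2 fold change -0.20, SE 0.177, adjusted p = 0.398). For both genes the groups overlapped.

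**Figure D3:**
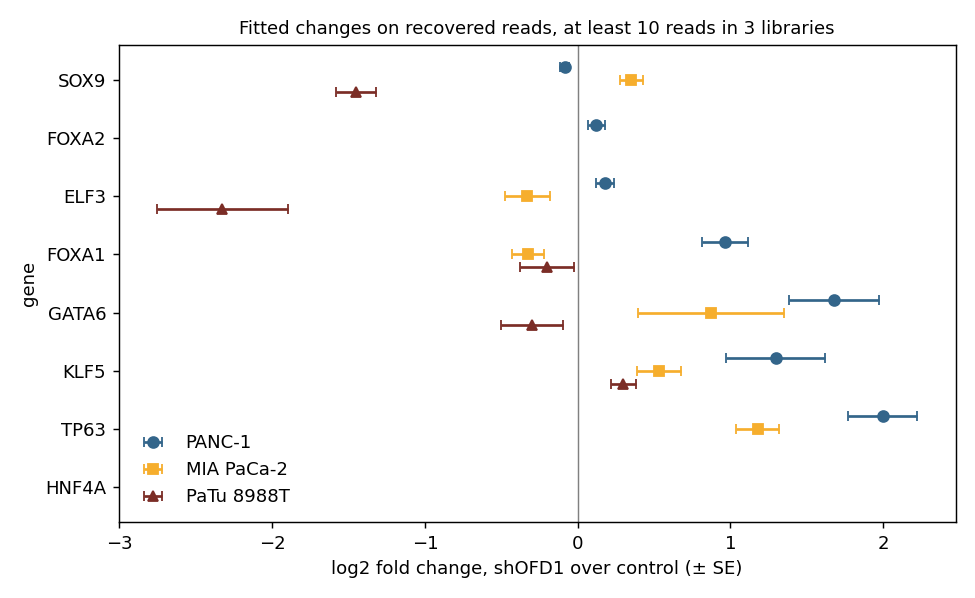
Log2 fold change of shOFD1 over control on the x axis, fitted with voom on recovered reads, for each member (y axis) in PANC-1 (circles), MIA PaCa-2 (squares) and PaTu 8988T (triangles), with bars of 1 SE. SOX9 lies at -1.45 in PaTu 8988T and at 0.35 in MIA PaCa-2, FOXA1 is positive in PANC-1 alone, KLF5 is positive in each line, and members with too few reads have no point.

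The knockdown response of several members differed between the lines, tested as an interaction in a fit of all 18 libraries. For SOX9 all 3 differences passed, with PANC-1 below MIA PaCa-2 by a log2 difference of -0.44 (limma adjusted p = 0.000942), PANC-1 above PaTu 8988T by 1.26 (limma adjusted p = 3.42e-08) and MIA PaCa-2 above PaTu 8988T by 1.70 (limma adjusted p = 6.39e-10). For FOXA1 the change in PANC-1 exceeded that in MIA PaCa-2 by 1.23 (limma adjusted p = 3.01e-05) and that in PaTu 8988T by 1.10 (limma adjusted p = 1.0e-04), and the other 2 lines did not differ detectably (-0.14, limma adjusted p = 0.530). These calls for SOX9 and FOXA1 held in every alternative setting run. ELF3 rose by 0.18 in PANC-1, and its log2 fold change on this scale in PaTu 8988T was -1.27, a difference of 1.44 (limma adjusted p = 3.26e-05). Its difference between PANC-1 and MIA PaCa-2 of 0.50 did not pass (limma adjusted p = 0.0508). In all, 4 of 5 members tested differed between PANC-1 and MIA PaCa-2 (43.2% of 10697 genes), 5 of 5 between PANC-1 and PaTu 8988T (35.8%) and 3 of 5 between MIA PaCa-2 and PaTu 8988T (51.1%). TP63 entered this fit through MIA PaCa-2, KLF5 through MIA PaCa-2 and PaTu 8988T, and ELF3 through MIA PaCa-2 and PANC-1. None of these counts therefore lends support. The log2(FPKM + 0.1) scale compresses KLF5 and TP63 in PANC-1, and PaTu 8988T held almost no TP63 reads, so the differences of these 2 genes depend on the scale. ELF3 was low in PaTu 8988T, and its differences depend on the scale too, from 0.43 to 2.50 over the alternatives for PANC-1 against PaTu 8988T and from -0.0059 to 2.0 for MIA PaCa-2 against PaTu 8988T. The TP63 difference between PANC-1 and MIA PaCa-2 was lost in 14 of 21 alternatives and reversed in 1.

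Subtype markers and related factors were counted next. The counts are to be read beside the shares of all genes called, 72.3% in PANC-1, 40.4% in MIA PaCa-2 and 39.4% in PaTu 8988T. On recovered reads these shares were 67.1%, 37.1% and 35.8%. None of the lists was tested against other genes. Of 24 classical subtype markers, 4 passed the filter in PANC-1, of which 3 rose and 0 fell, with a median log2 fold change of 0.75 beside 0.06 over all genes tested. On recovered reads 6 were tested, 3 rose and 1 fell, with a median of 0.36. LGALS4, under the FPKM filter, went from 0.634 ± 0.264 to 0.118 ± 0.0969 FPKM, on 14 to 36 and 1 to 8 reads a library. TFF1, a secreted trefoil peptide, rose from 1.91 ± 0.367 to 8.18 ± 1.51 FPKM (log2 fold change 2.04, limma adjusted p = 1.19e-06), and CEACAM6, a surface adhesion protein, from 2.06 ± 0.175 to 4.54 ± 0.667 FPKM (1.10, limma adjusted p = 1.14e-05). In MIA PaCa-2, 2 were tested and 1 rose, ANXA10 (39.5 ± 1.69 to 46.6 ± 0.707 FPKM), an annexin of gastric epithelium (log2 fold change 0.24, limma adjusted p = 0.0326), while AGR2, a chaperone of mucus-secreting cells, did not pass (-0.03, limma adjusted p = 0.896). None passed the filter in PaTu 8988T.

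Of 24 basal-like markers, 8 were tested in PANC-1, where 2 rose and 3 fell (median -0.10). On recovered reads the sign of the median turned, with 4 rises and 3 falls among 10 (median 0.16). AREG, an EGF receptor ligand, rose (log2 fold change 0.86, limma adjusted p = 1.21e-07), and SLC2A1, the glucose transporter GLUT1, fell (-0.43, limma adjusted p = 1.65e-05). DHRS9, a retinol dehydrogenase, rose from 12.6 ± 1.12 to 18.9 ± 1.06 FPKM (0.58, limma adjusted p = 3.04e-05). In MIA PaCa-2, 6 were tested, 2 rose and 3 fell (median -0.07, beside -0.03 over all genes). On recovered reads 3 rose and 3 fell among 9 there, and the median was 0.0086. S100A2, a calcium-binding protein of squamous epithelium, fell from 143 ± 30.4 to 47.0 ± 1.86 FPKM (log2 fold change -1.59, limma adjusted p = 0.000522) in the same libraries in which TP63 rose. In PaTu 8988T, 8 were tested, 1 rose and 6 fell (median -0.41, beside 0.03 over all genes), among them FGFBP1, a carrier of fibroblast growth factors (-0.70, limma adjusted p = 0.000257), CTSV, a lysosomal protease (-0.67, limma adjusted p = 0.000144), and SLC2A1 (-0.43, limma adjusted p = 9.36e-05).

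Other endoderm and pancreas factors, 17 genes, gave 1 rise and 2 falls among 3 tested in PANC-1, 0 rises and 2 falls among 3 in MIA PaCa-2, and no call among 4 in PaTu 8988T. The median in PANC-1 was -0.53 and turned to 0.08 on recovered reads, with 3 rises and 3 falls among 10, and 1 of 8 rose in PaTu 8988T. With the FPKM filter, in PaTu 8988T, MNX1 (-0.22, limma adjusted p = 0.0548), GATA4 (-0.10, limma adjusted p = 0.321) and HNF4G (0.17, limma adjusted p = 0.331) had the smallest p. ONECUT3, a homeodomain factor, fell in PANC-1 from 6.77 ± 0.163 to 3.03 ± 0.0890 FPKM (log2 fold change -1.13, limma adjusted p = 1.37e-07). In MIA PaCa-2, HHEX (-0.49, limma adjusted p = 0.0347) and GATA4 (-0.40, limma adjusted p = 0.0387) fell, and MNX1 did not pass (-0.30, limma adjusted p = 0.316). Of 18 other epithelial factors, 6 rose and 2 fell among 8 tested in PANC-1 (median 0.65), 3 rose and 0 fell among 7 in MIA PaCa-2 (median 0.42), and 2 rose and 2 fell among 7 in PaTu 8988T (median 0.03). SOX4, a relative of SOX9 with roles in progenitor cells, rose in PANC-1 from 44.1 ± 1.02 to 101 ± 2.12 FPKM (log2 fold change 1.19, limma adjusted p = 5.73e-10). ELF5, an ETS factor of mammary and ductal epithelium, rose in MIA PaCa-2 from 1.91 ± 0.231 to 5.31 ± 0.428 FPKM (1.43, limma adjusted p = 0.000514). KLF4, a partner of KLF5 in stem cells and epithelium, and ZBED2 (0.66, limma adjusted p = 0.00147) rose in PaTu 8988T, KLF4 by 0.24 (limma adjusted p = 0.00148), and KLF6 fell there (-0.52, limma adjusted p = 1.56e-05).

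Among 6 factors of the epithelial-mesenchymal transition, 0 rose and 1 fell of 3 tested in PANC-1, SNAI1 (-0.27, limma adjusted p = 0.0104). On recovered reads 0 rose and 0 fell of 4 tested in PANC-1. TWIST2 (0.23, limma adjusted p = 0.384) and ZEB1 (-0.02, limma adjusted p = 0.732) did not pass there. In MIA PaCa-2, 1 of 2 tested rose, ZEB1, a repressor of epithelial genes, from 4.21 ± 0.994 to 7.15 ± 0.289 FPKM (log2 fold change 0.78, limma adjusted p = 0.0152), and SNAI1 did not pass (0.08, limma adjusted p = 0.600). The 1 tested in PaTu 8988T, ZEB1 (-0.17, limma adjusted p = 0.112), did not pass. Among 17 family relatives of the members, 3 rose and 2 fell of 8 tested in PANC-1, 4 rose and 2 fell of 12 in MIA PaCa-2, and 3 rose and 1 fell of 9 in PaTu 8988T. GATA3, a relative of GATA6, rose in PANC-1 from 3.24 ± 0.265 to 5.59 ± 0.50 FPKM (log2 fold change 0.77, limma adjusted p = 2.90e-05). KLF4 rose in PANC-1 as well (0.78, limma adjusted p = 1.38e-05), and KLF6 fell (-0.26, limma adjusted p = 3.34e-05). In MIA PaCa-2 both rose, KLF4 by 0.51 (limma adjusted p = 0.00475) and KLF6 by 0.78 (limma adjusted p = 0.0046). Antisense neighbours with a row, 4 genes, were listed at 0 throughout PANC-1 and did not pass the FPKM filter in any line. Strand of counting was not stated, so reads of a member and its antisense neighbour cannot be told apart.

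VIM, the mesenchymal intermediate filament, was high in all lines and fell in PANC-1 from 1401 ± 8.34 to 793 ± 12 FPKM (log2 fold change -0.82, limma adjusted p = 1.18e-10) and in PaTu 8988T (-0.40, limma adjusted p = 4.29e-05), while it rose in MIA PaCa-2 (0.48, limma adjusted p = 0.000388). The other mesenchymal markers did not all follow it. FN1, the matrix protein fibronectin, rose in PANC-1 from 2.05 ± 0.118 to 6.54 ± 0.348 FPKM (log2 fold change 1.63, limma adjusted p = 4.27e-08) and fell in PaTu 8988T (-0.46, limma adjusted p = 0.00431), and CDH2 fell in PANC-1 (-0.87, limma adjusted p = 1.23e-06). Of the 7 epithelial markers, 3 rose and 3 fell among 7 tested in PANC-1, 1 rose and 1 fell among 4 in MIA PaCa-2, and 0 rose and 3 fell among 4 in PaTu 8988T. KRT19 fell in PANC-1 from 178 ± 5.01 to 89.2 ± 3.07 FPKM (limma adjusted p = 2.61e-09). MUC1, a membrane mucin (log2 fold change -0.43, limma adjusted p = 0.000209), and KRT18 (-0.06, limma adjusted p = 0.0154) fell there too. The 3 that rose there were KRT8 (log2 fold change 0.26, limma adjusted p = 1.46e-06), EPCAM (0.49, limma adjusted p = 0.00015) and CDH1 (0.32, limma adjusted p = 0.00307). MUC1 rose in MIA PaCa-2 from 1.30 ± 0.143 to 6.14 ± 0.268 FPKM (log2 fold change 2.16, limma adjusted p = 0.000156). In PaTu 8988T it fell from 7.91 ± 0.791 to 3.75 ± 0.406 FPKM (-1.06, limma adjusted p = 4.29e-05). KRT8 fell in MIA PaCa-2 (-0.75, limma adjusted p = 0.00707). The epithelial markers summed to 944 to 965 FPKM in control and 929 to 948 FPKM in shOFD1 PANC-1 libraries, to 1617 to 2198 and 1366 to 1398 FPKM in MIA PaCa-2, and to 1054 to 1076 and 842 to 914 FPKM in PaTu 8988T. The 7 acinar and endocrine markers summed to 0.0179 to 0.193 FPKM in control and 0.854 to 1.07 FPKM in shOFD1 PANC-1 libraries. Most of this was PRSS1, at 0.0947 ± 0.0893 FPKM in control and 0.823 ± 0.228 FPKM in shOFD1 libraries. GCG and CHGA had at most 1 and 5 reads in a library, and INS, AMY2A, CPA1 and CELA3A were listed at 0. The 5 blood and endothelial markers summed to 0.0371 to 0.0858 FPKM in control and 0.145 to 0.277 FPKM in shOFD1 PANC-1 libraries. In PaTu 8988T the latter summed to at most 0.0726 FPKM. Their part in the results was not tested.

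SOX9 was the one member that passed the 1 FPKM filter in each of the 3 lines. Over the 18 libraries, with each line's control mean subtracted, the genes whose levels were most like it among 9083 were EMP1 (Pearson r = 0.978), DEPP1 (r = 0.965) and TMEM158 (r = 0.964). They are given as a description, since the libraries share lines and knockdowns. The log2 fold changes of DEPP1 were -0.56 in PANC-1, 1.13 in MIA PaCa-2 and -2.58 in PaTu 8988T, in the same direction as SOX9 in each line. Those of EMP1 were -0.10, 0.27 and -0.76, and those of TMEM158, whose value in PANC-1 was positive where that of SOX9 was negative, were 0.16, 0.68 and -1.82.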

How the data were processed

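Total RNA was sequenced in 18 libraries, 6 groups of 3. Per the study's methods, HISAT2 was the aligner and HTSeq-count the counter; the authors deposited FPKM values for each gene of each line. Versions, annotation and strand of counting are not given in the sources used here. Library kits differ between the labels and the methods. Since low FPKM values are whole multiples of 1 read, reads and gene lengths were recovered, with lengths whole for 99.1 to 99.3% of the better covered genes. Gene lengths were the same in PANC-1 and the other lines for only 53.7% of genes, so levels were tested between PaTu 8988T and MIA PaCa-2 alone. The step was tested on simulated data.

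Each line was tested with limma 3.58.1 (R 4.3.3, lmFit and eBayes with a variance trend) on log2(FPKM + 0.1) for genes with a mean of at least 1 FPKM. Differences between lines used 1 fit of all 18 libraries. A second fit used limma voom on recovered reads. With 3 against 3 libraries an exact permutation test cannot go below p = 0.1, so none is given. The members and lists were chosen with earlier results of these data known. Genes named from a list were those past an adjusted p of 0.05 and 2-fold, or else the 3 of smallest p. At most 4 were named per list and line. LGALS4 in PANC-1 and KLF4 and KLF6 in MIA PaCa-2 were named outside this rule. In the likeness search the 3 genes of highest r were named. Some genes that this rule names are not reported here. Alternatives changed the pseudocount, filter, scaling, variance trend, replicate block and libraries. Gene positions came from GENCODE 29.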

Additional observations from a re-analysis of the deposited data

Results flagged for a closer look

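Each of the following differences between lines in the log2 change after OFD1 knockdown passed a test of the difference itself, an interaction in limma over 18 libraries (adjusted p below 0.05). Between PANC-1 and MIA PaCa-2 the difference was 1.23 for FOXA1, 0.58 for KLF5, -0.44 for SOX9 and 0.55 for TP63. Between PANC-1 and PaTu 8988T it was 1.10 for FOXA1, 0.80 for KLF5, 1.44 for ELF3, 1.26 for SOX9 and 1.66 for TP63. Between MIA PaCa-2 and PaTu 8988T it was 0.94 for ELF3, 1.70 for SOX9 and 1.12 for TP63. For FOXA1 and SOX9 they held in every alternative run, whereas KLF5 between PANC-1 and MIA PaCa-2 was lost in 15 of 20 alternatives, and TP63 between the same lines was lost in 14 of 21 and reversed in 1. The differences of ELF3 and TP63 against PaTu 8988T depend on the scale, since that line held few reads of either gene.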

How the results depend on the processing

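Counts of members called changed that moved by over 1.5 times are given here. In PANC-1 the count of 4 became 7 with no filter, 2 with no variance trend and 7 with voom at 10 reads, an alternative added after seeing the data, and 2 to 3 with 1 replicate left out. The PANC-1 count past 2-fold, 0, became 3 with no filter, 3 with voom at 10 reads and 0 to 1 with 1 replicate left out. In MIA PaCa-2 the count of 4 became 2 with no filter, 2 with a mean of at least 5 FPKM and 1 to 4 with 1 replicate left out. In PaTu 8988T the count of 2 became 1 with a mean of at least 5 FPKM, and the count past 2-fold, 1, became 0 with a pseudocount of 1, 2 with no filter, 0 with a mean of at least 5 FPKM and 2 with voom at 10 reads. Differences between PANC-1 and MIA PaCa-2, 4, became 2 with no filter, 2 with median-ratio scaling and 2 to 4 with 1 replicate left out. Differences between PANC-1 and PaTu 8988T, 5, became 3 with a mean of at least 5 FPKM, and control levels, 5, became 2. No filter adds low genes and a mean of at least 5 FPKM removes members; the cause of the other moves was not tested.

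Replicate numbers did not pair the samples, with correlations of same-numbered deviations from -0.111 to 0.130. With the replicate block the MIA PaCa-2 count became 2 and the differences between PANC-1 and MIA PaCa-2 became 2. With a pseudocount of 1 the difference of TP63 between PANC-1 and MIA PaCa-2 reversed to -0.33 (limma adjusted p = 0.0576) and that of ELF3 between MIA PaCa-2 and PaTu 8988T to -0.0059 (limma adjusted p = 0.972), since a larger pseudocount shrinks the change of low genes. TP63 differences from PaTu 8988T lost their call under voom. Depth limits HNF4A in each line and FOXA2 and TP63 in PaTu 8988T.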
